A study of Mus musculus with 3 samples.

Results

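The clustered protocadherins are the cell adhesion genes of the alpha, beta and gamma protocadherin clusters, which lie next to each other on mouse chromosome 18. They were taken as every gene of the deposited table whose symbol is Pcdha, Pcdhac, Pcdhb, Pcdhga, Pcdhgb or Pcdhgc followed by a number. That gave 56 of 31053 genes, of which 13 were alpha, 22 beta and 21 gamma. A further gene model, Pcdha11.1, did not match this pattern and had 0 counts in the wells used. In the GRCm38 annotation (GENCODE M21) all 56 lie on the plus strand, from 36930184 (the start of Pcdha1) to 37841873 (the shared end of most gamma genes).

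Each clustered protocadherin is a transmembrane protein whose cadherin repeats bind the same isoform on a neighbouring membrane. In neurons each cell is known to use its own combination of isoforms, set by promoter choice with CTCF and cohesin, and cells use that combination to tell self from non-self. Alpha and gamma isoforms pair a variable first exon with constant exons shared by the whole cluster, whereas a beta isoform is encoded by a single exon with no constant part. In the retina, gamma isoforms are known for self-avoidance of amacrine cell dendrites and for the survival of interneurons. This choice is known to give neighbouring neurons different isoforms, so the counts are given below by gene, by well and by plate position.

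Each well held a cell that the labels call a GFP-positive cone. It was isolated by flow sorting with a dead-cell dye after papain digestion of the retina, at postnatal day 12 per the labels. The Wildtype library came from the Chrnb4-GFP line, the Cnga3-/- library from mice without the Cnga3 subunit of the cone cyclic nucleotide-gated channel, and the Pde6ccpfl1 library from mice with the cpfl1 mutation of the cone phosphodiesterase gene Pde6c. Cells of all 3 groups were sorted by GFP, and the libraries of the mutant lines are named Cnga3-GFP and Pde6c-GFP, with no further word on their reporter. Each genotype was 1 library on 1 plate, so genotype and plate cannot be told apart, and the well names carry a tag that also differs between the plates (pup-P11 for Wildtype, pup-P08 for Cnga3-/-, pup-P10 for Pde6ccpfl1). The labels do not say what the tag means. If it is a postnatal day, it differs from the labelled age and between the genotypes. A well was used if it had 500 or more genes with a count and no more than 30% mitochondrial (mt-) counts, which left 52 Wildtype, 70 Cnga3-/- and 61 Pde6ccpfl1 wells with 273080, 335499 and 295011 counts. Kept wells held 1061 to 16935 counts. With a single library per genotype the genotypes were compared without a test, and every interval below is a 95% interval that covers counting error only.

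The cone label was checked against 12 cone markers. In Wildtype they summed to 53 counts, in Cnga3-/- to 275 and in Pde6ccpfl1 to 239, against 115, 300 and 221 for 12 rod markers. Horizontal cell markers (4 genes) had 101, 93 and 92 counts, and amacrine and ganglion cell markers (7 genes) 42, 53 and 39. Muller glia markers (6 genes) had 33, 24 and 14, and bipolar cell markers (6 genes) 24, 46 and 37. Rod markers summed to more than cone markers in Wildtype and Cnga3-/-, and to nearly as much in Pde6ccpfl1. The marker counts thus do not single out cones in any of the 3 libraries, least of all in Wildtype. Opn1sw, Gnat2, Gngt2, Pde6c and Cngb3 were at 0 in Wildtype, and Cngb3 was at 0 in Pde6ccpfl1. In Wildtype, Pcdhb13 alone had 7296 counts beside the 53 counts of all cone markers together.

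Counts of the family fell almost wholly on a pair of beta genes. Wildtype held 11144 counts of the 56 genes (4.08% of the library), with 10814 in Cnga3-/- (3.22%) and 13301 in Pde6ccpfl1 (4.51%). Pcdhb13 and Pcdhb17 together took 95.3% of them in Wildtype (interval 94.9 to 95.7), 94.4% in Cnga3-/- (94.0 to 94.8) and 95.6% in Pde6ccpfl1 (95.2 to 95.9). Of the other 54 genes, 12 had at least 20 counts over the kept wells, 35 had 1 to 19 and 7 had none. Those at 0 were Pcdha4, Pcdha12, Pcdhb12, Pcdhga4, Pcdhga6, Pcdhga8 and Pcdhgb7. With 3 wells as the limit that a count of 0 allows, for each of them 0 of 52 Wildtype wells allows a share of up to 5.77% of wells with a count, 0 of 70 Cnga3-/- wells up to 4.29% and 0 of 61 Pde6ccpfl1 wells up to 4.92%. The upper ends of the exact 95% intervals are higher, at 6.85%, 5.13% and 5.87% in the same order.

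**Figure D1:**
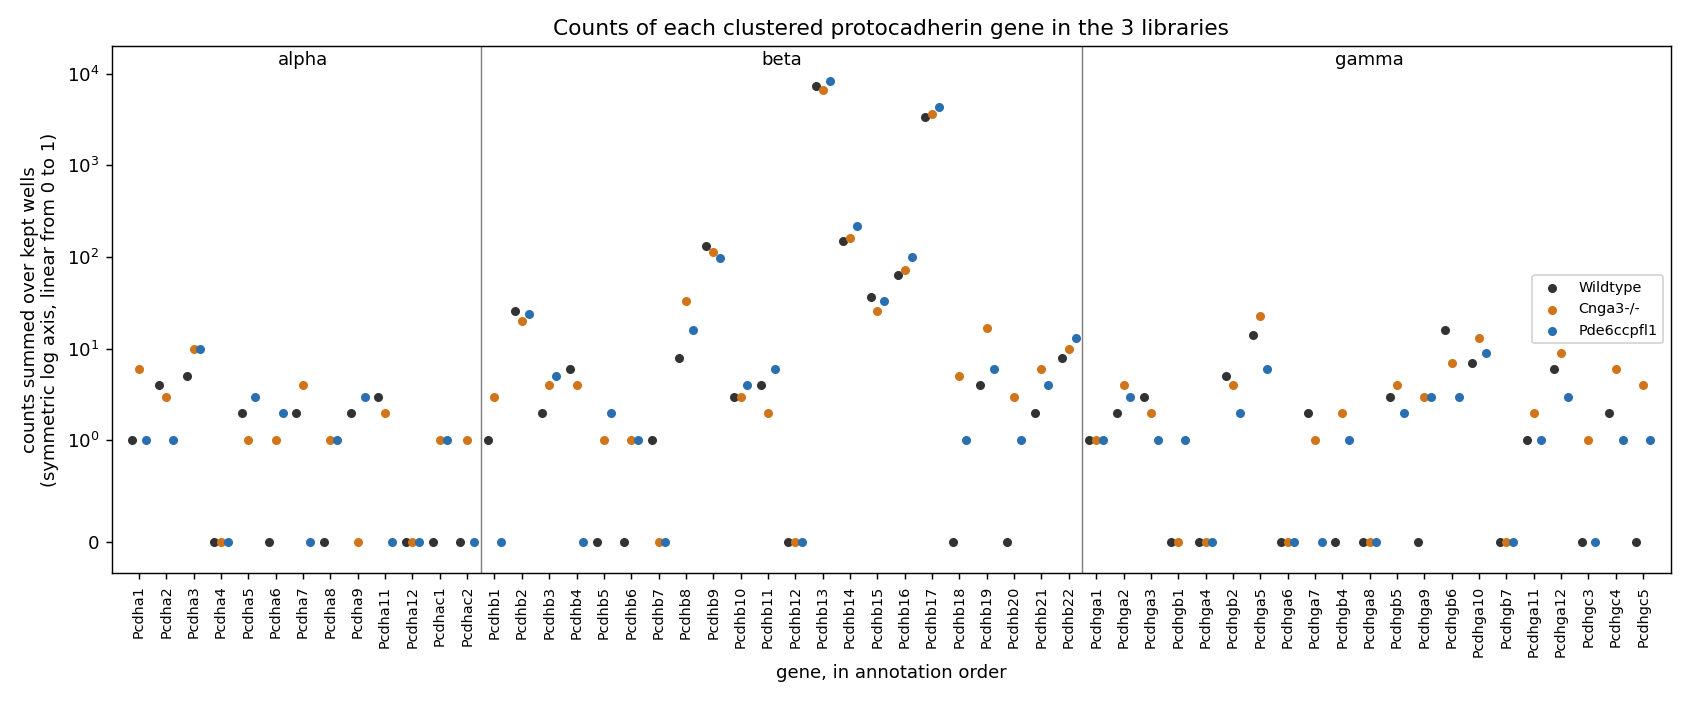
Counts of each of the 56 genes, summed over the kept wells of each library (symmetric log axis), with 1 point per library and the clusters separated by vertical lines. Pcdhb13 and Pcdhb17 stand between 3320 and 8379 counts in each library, and no alpha gene exceeds 10.

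Pcdhb13 was the most abundant gene of the whole table and Pcdhb17 ranked 9. Counts of Pcdhb13 were 7296 for Wildtype, 6552 for Cnga3-/- and 8379 for Pde6ccpfl1, which is 26717, 19529 and 28402 CPM (counts scaled by the library total). Pcdhb17 had 3320, 3658 and 4331 counts in the same order, or 12158, 10903 and 14681 CPM. The ratio of Pcdhb13 to Pcdhb17 counts was 2.20, 1.79 and 1.94, so the order of the pair was the same in every library.

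Both genes were counted in 183 of 183 kept wells. Pcdhb13 took 1.51% of the counts of the lowest Wildtype well, 2.44% at the median and 13.8% in the highest, against 1.10%, 1.74% and 13.3% in Cnga3-/- and 1.35%, 2.47% and 16.8% in Pde6ccpfl1. Pcdhb17 took 0.722%, 1.10% and 7.09% in Wildtype, 0.611%, 0.983% and 6.41% in Cnga3-/- and 0.751%, 1.39% and 6.17% in Pde6ccpfl1. Most wells thus lay close to the median and a few stood far above it, and the ranges of the 3 libraries overlapped. Only 16 of 31053 genes had a count in every kept well. Outside the highest well of each library, the count of Pcdhb13 followed the well's total count, with correlations over wells of 0.91, 0.83 and 0.90 for Wildtype, Cnga3-/- and Pde6ccpfl1 (wells of a plate, and the total includes the gene). For Pcdhb17 it was 0.89, 0.77 and 0.79.

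**Figure D2:**
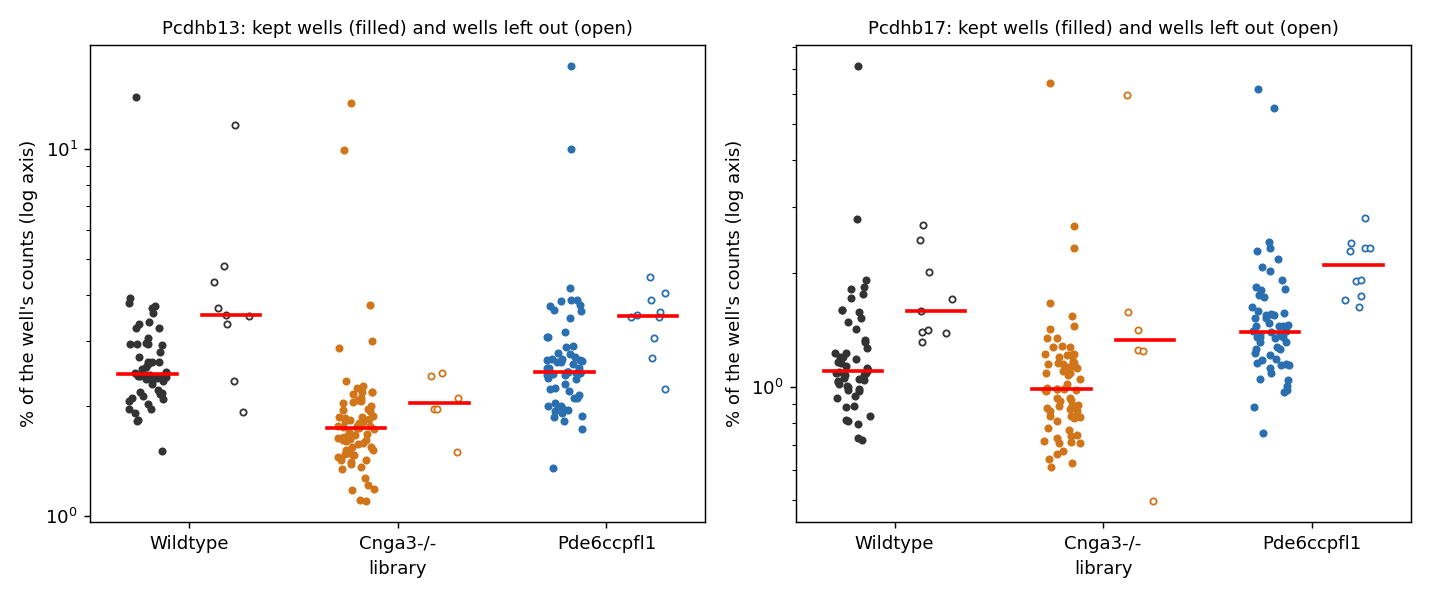
Share of each well's counts on Pcdhb13 and on Pcdhb17 (log axis), by library, with 1 point per well, kept wells filled, wells left out by the filter open, and red bars at the medians. Every well has both genes, and the left-out wells have medians above those of the kept wells in each library.

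Pcdhb13 was the leading member in 50 of 52 Wildtype, 67 of 70 Cnga3-/- and 58 of 61 Pde6ccpfl1 wells, and Pcdhb17 led in the other 2, 3 and 3. No other member led in any kept well. The leading member took a median of 65.6% of the family's counts per Wildtype well, 60.9% per Cnga3-/- well and 62.0% per Pde6ccpfl1 well. A median of 6, 6 and 5 members was counted per well. After each well was thinned to 1400 counts, which left 48, 65 and 54 wells, the median was 3, 3 and 4 members. Apart from the pair, a median of 1, 1 and 2 isoforms was thus counted per well at that depth. With Pcdhb13 and Pcdhb17 set aside, the median well held 5.5, 5 and 5 counts of the family in all, unthinned.

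Of the remaining beta genes, Pcdhb14 and Pcdhb9 had the most counts. Pcdhb14, the beta gene next to Pcdhb13, had 150, 163 and 219 counts in Wildtype, Cnga3-/- and Pde6ccpfl1, in 63.5%, 57.1% and 78.7% of wells. Pcdhb9 had 131, 114 and 97 counts, in 71.2%, 42.9% and 54.1% of wells. Pcdhb16 had 64, 73 and 99 counts and was found in 53.8%, 48.6% and 65.6% of wells. These 3 genes and the leading pair were the members counted in over 50% of all kept wells. Their median share was at most 0.0386% of a well's counts, yet single wells reached 1.30% for Pcdhb14, 1.13% for Pcdhb9 and 0.415% for Pcdhb16.

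A further 5 beta genes passed 20 counts. Pcdhb15 had 37, 26 and 33 counts, Pcdhb2 had 26, 20 and 24, and Pcdhb22 had 8, 10 and 13. Counts of Pcdhb8 were 8, 33 and 16, and those of Pcdhb19 were 4, 17 and 6. The other 12 beta genes had 0 to 12 counts over all kept wells. Pcdhb21 and Pcdhb22 overlap in the annotation, so their counts may be split. Of the 50-base words of Pcdhb13 transcripts 1.80% also occur in another gene, and of those of Pcdhb17 3.60%, whereas 64.2% of the words of Pcdhb12, which had no count, are shared, mostly with the gene model Gm37446.

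Alpha and gamma isoforms had few counts. The 13 alpha genes summed to 19 Wildtype, 30 Cnga3-/- and 22 Pde6ccpfl1 counts, and Pcdha3, with 5, 10 and 10, was the only alpha gene with at least 20 counts in all. The 21 gamma genes had 62, 86 and 38 counts. Among them Pcdhga5 had 14, 23 and 6 counts, Pcdhga10 7, 13 and 9, and Pcdhgb6 16, 7 and 3. Each of these genes was counted in at most 18.6% of the wells of a library.

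The C-type isoforms, which in neurons are known to be used without random choice, were as sparse. Pcdhac1 had 0, 1 and 1 counts in Wildtype, Cnga3-/- and Pde6ccpfl1, and Pcdhac2, which is needed for the even spread of serotonergic axons, had 0, 1 and 0. Pcdhgc3 had 0, 1 and 0 counts. Pcdhgc4, the gamma isoform known for neuronal survival, had 2, 6 and 1, and Pcdhgc5 had 0, 4 and 1. The constant exons make counts of single alpha and gamma isoforms uncertain. Of the 5332 exon bases of Pcdha3, 2472 are not shared with another gene in the annotation, and Pcdhga10 has 0 such bases. Of the 50-base words of alpha transcripts 48.2% (Pcdhac2) to 91.6% (Pcdha4) occur in another gene, and how reads that overlap several genes were assigned is not given in the sources used here.

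Levels were also set per length of annotated exon, with a cluster given as its summed CPM over its summed length. Pcdhb13 stood at 7202, 5264 and 7656 CPM per kilobase in Wildtype, Cnga3-/- and Pde6ccpfl1, and Pcdhb17 at 2609, 2340 and 3150. The other 20 beta genes summed to 19.4, 17.3 and 21.4 CPM per kilobase, the gamma genes to 2.03, 2.29 and 1.15, and the alpha genes to 0.927, 1.19 and 0.993. Counting only exon bases not shared between members, gamma genes were at 3.49, 3.94 and 1.98 and alpha genes at 1.84, 2.36 and 1.97 CPM per kilobase. Olfactory receptor genes, which serve smell and are not known for use in cones, stood at 4.50, 3.61 and 4.16 CPM per kilobase over 1134 genes with an annotated length. The alpha sum lay below the olfactory receptor level in all 3 libraries on either length, and the gamma sum did so on full length. On unshared length the gamma sum was below it in Wildtype and Pde6ccpfl1 and above it in Cnga3-/-. Vomeronasal receptor genes, also not known for use in cones, stood lower, at 1.75, 1.10 and 1.12 CPM per kilobase over 327 genes. The gamma sum lay above the vomeronasal level in all 3 libraries on either length. The alpha sum lay above it in all 3 on unshared length, but on full length only in Cnga3-/-. By gene and not set per length, the median count over all kept wells was 5 for alpha and 5 for gamma genes. It was 2 for olfactory and 1 for vomeronasal receptor genes. The reading thus depends on the family used for comparison and on whether sums or medians are used.

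The wells in which Pcdhb13 and Pcdhb17 stood farthest above their medians were each at the same plate position on all 3 plates. For Pcdhb13 that position was D11, where it took 13.8% of the counts in Wildtype (1046 of 7566), 13.3% in Cnga3-/- (1053 of 7891) and 16.8% in Pde6ccpfl1 (1595 of 9494). Position H09 came next, with 9.92% in Cnga3-/- and 9.98% in Pde6ccpfl1, and the Wildtype well at H09, left out by the filter, held 11.7%. For Pcdhb17 the position was B07, with 7.09% in Wildtype (410 of 5780), 6.41% in Cnga3-/- (482 of 7520) and 6.17% in Pde6ccpfl1 (509 of 8250). The 3 plates held cells of 3 genotypes, so these were 3 different cells.

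Several smaller members also had a position that recurred. Pcdhb9 was highest at E11, with 1.04% in Wildtype, 1.13% in Cnga3-/- and 1.12% in Pde6ccpfl1, against medians over positions of 0.0323%, 0% and 0.0149%. Position E11 thus held 50 of its 131 Wildtype counts, 57 of its 114 Cnga3-/- counts and 43 of its 97 Pde6ccpfl1 counts. Pcdhb14 was highest at B07 with 1.30%, 1.09% and 1.13%, Pcdhb16 at B07 with 0.415%, 0.279% and 0.315%, and Pcdhb15 at B07 with 0.225%, 0.146% and 0.158%. By the kept well with the highest share, 9 of the 14 members with at least 20 counts had the same position on all 3 plates, among them Pcdha3 (H11), Pcdhga5 (F08) and Pcdhga10 (H10). The other 5 did not. They were Pcdhb2 (D11, H09 and D11 in Wildtype, Cnga3-/- and Pde6ccpfl1), Pcdhb8 (F09, D11 and D11), Pcdhb19 (G08, H02 and H02), Pcdhb22 (E05, D02 and D11) and Pcdhgb6 (C04, C04 and C11), which had 3 to 33 counts per library. The 4 neighbouring beta genes (Pcdhb14 to Pcdhb17) were therefore highest in the same well of each plate, while Pcdhb13, which lies beside them, was not. The share of all genes was not computed under the rule that gave 9 of 14, so that count is not a result about the family.

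All 6 members with at least 20 counts in each library over the 43 positions kept on every plate had the same leading position on all 3 plates. So did 951 of 1175 genes of the whole table that met this minimum (80.9%). At a minimum of 50 counts it was 5 of 5 members and 372 of 418 genes (89%). The members' share is near that of the genes at large and is not a result about the family. Wells with counts on all 3 plates shared 57 positions. Over 418 genes, the well most like a given well of another plate, by correlation of log CPM, was the one at its own position for 40 of 43 positions in each pair of plates. Well totals at the same position correlated at 0.70 to 0.78 between plates.

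**Figure D3:**
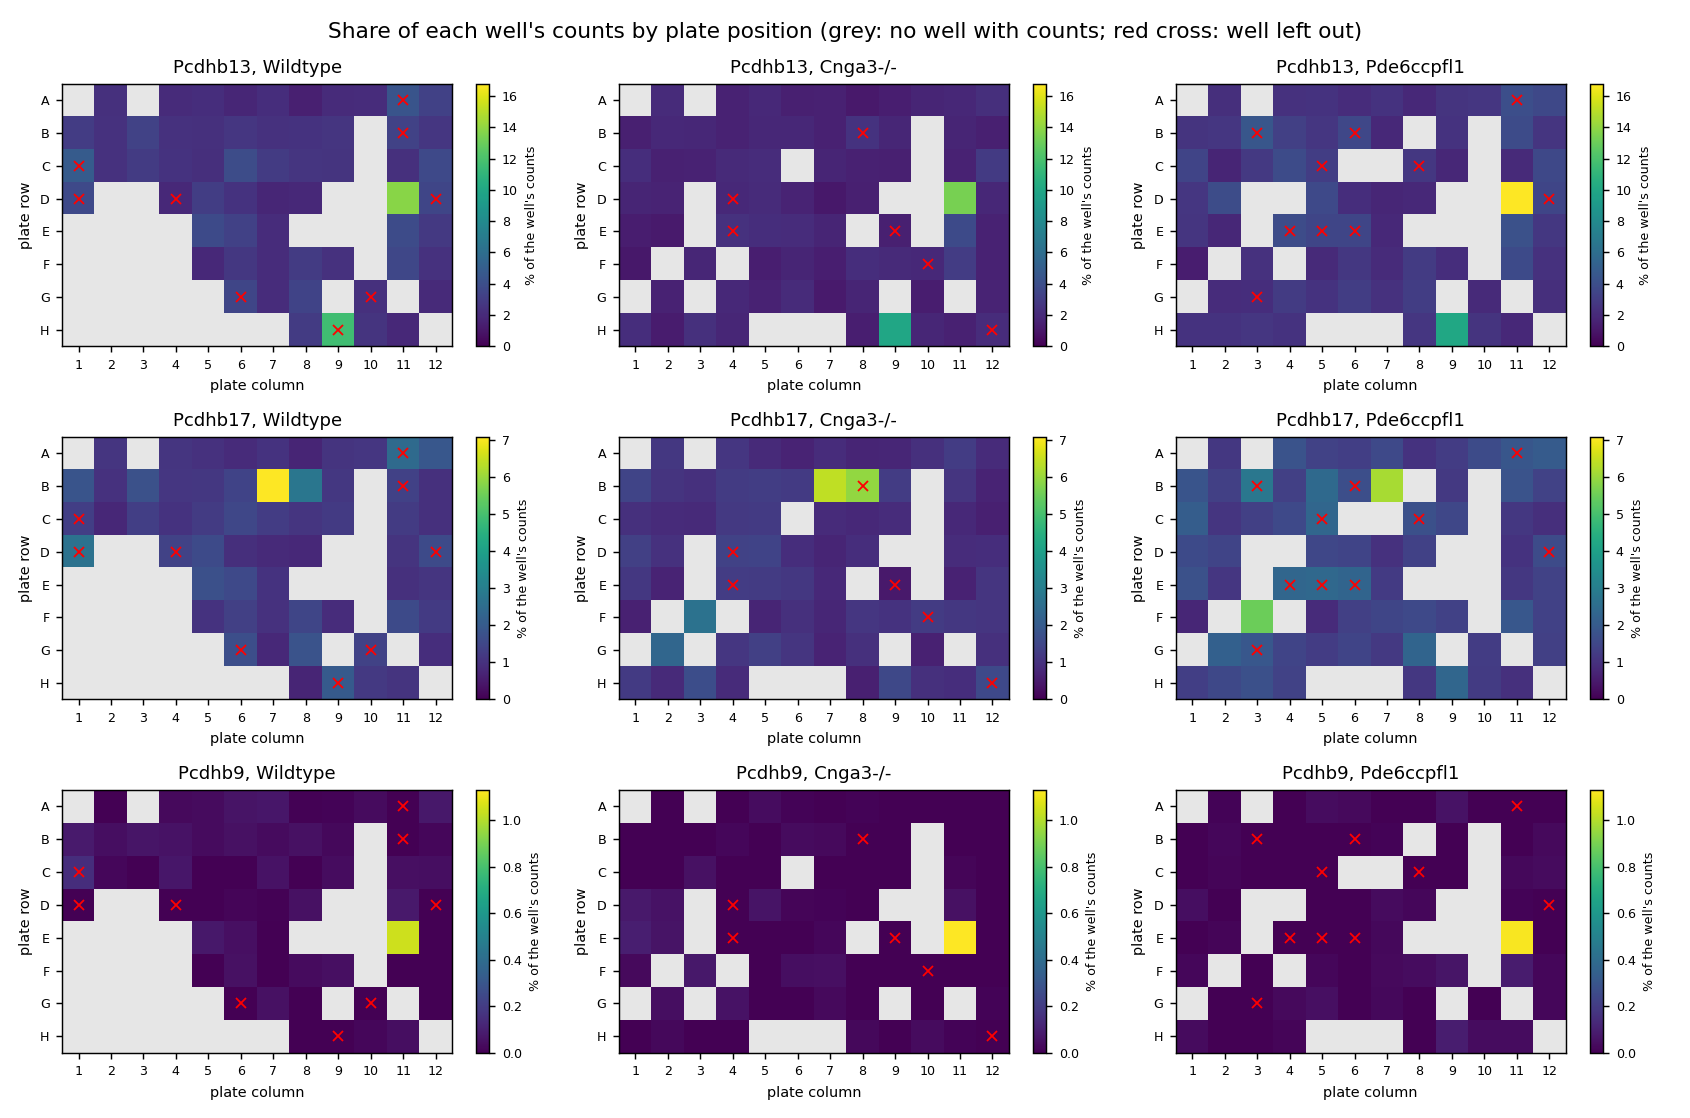
Share of each well's counts (colour, one scale per gene) at each plate position, for Pcdhb13, Pcdhb17 and Pcdhb9 (rows of panels) in the 3 libraries (columns of panels). Position D11 is the highest kept well for Pcdhb13, B07 for Pcdhb17 and E11 for Pcdhb9 on all 3 plates.

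The pattern over positions did not rest on the leading wells alone for the abundant pair. The share of Pcdhb13 correlated between plates over the 43 positions at 0.98 in each pair of plates, and at 0.75 to 0.78 without D11. For Pcdhb17 the correlation was 0.93 to 0.97, and 0.51 to 0.64 without B07. For Pcdhb9 it was 0.98 to 0.99 with E11 and -0.15 to -0.07 without it. The points are wells of different cells that share only their position. Without the highest well, the variance of thinned Pcdhb9 counts over wells was 0.83 to 0.87 times their mean, near the value of 1 that counting error alone would give, against 4.17 to 13.4 with it.

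The wells in which Pcdhb17 exceeded Pcdhb13 also recurred. They were B07 and B08 in Wildtype, and B07, F03 and G02 in both Cnga3-/- and Pde6ccpfl1. Wildtype had no well with counts at F03 or G02, and Pde6ccpfl1 had none at B08, so these positions cannot be compared over all 3 plates. At F03 Pcdhb17 took 2.66% of counts in Cnga3-/- and 5.51% in Pde6ccpfl1, and at G02 it took 2.34% and 2.18%. At B08 it took 2.79% in Wildtype and 5.95% in the Cnga3-/- well, which the filter had left out. The identity of the leading isoform of a well thus repeated by plate position in cells of different genotypes.

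Because the recurrence was by position, the transcripts (GENCODE M21, both strands) were searched for words shared by the abundant genes. The words were chosen after the data were seen, from the 40 genes with the highest median share of a well's counts that are not clustered protocadherins. The 8-letter word with the largest excess over other genes, and the word it grew into when, one at a time, the letter that kept the largest number of the 40 genes was added on its left, are shown because members differ in them:
8-letter word: CGCAGACA
11-letter word: CAACGCAGACA
On either strand, the 8-letter word is in 20 of the 40 genes (50%) and in 5.93% of 30368 other genes, and the next best word had 67.5% against 26.3%. On the sense strand alone, 12 of the 40 genes hold the 8-letter word. The longest word of the series has 13 letters and ends in the 11-letter word.

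Genes holding a longer word had counts as high or higher. Among other genes the median count over kept wells was 0 for 5803 genes without even the last 6 letters (CAGACA), 3 for 10453 genes with only those 6, 8 for 12312 genes with 7, and 14 for 1324 genes with 8. It was 14 for 353 genes with 9 letters, 34.5 for 82 genes with 10, 79 for 39 genes with 11 and 875.5 for 2 genes with 12. Per kilobase of the longest transcript, these medians went from 0 and 1.26 at 6 letters to 3.58 at 8, 6.60 at 10, 19.2 at 11 and 134 at 12. The share of genes with at least 50 counts was 0.982% without the word, 19.2% with 8 letters and 56.4% with 11.

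The full 13-letter word was held by 4 members, Pcdhb13, Pcdhb14, Pcdhb16 and Pcdhb17, which had 236 to 22227 counts. In the rest of the annotated table it was held only by Kcnh7 and Unc45b, both among the 40 genes used to choose it, with 5131 and 5675 counts and a count in 100% of kept wells. No member had 10 to 12 letters. The 5 members with 9 letters had a median of 6 counts, the 3 with 8 letters 5, the 22 with 7 letters 8.5 and the 22 with 6 letters 4.5. Pcdhb9, with 342 counts, and Pcdhb15, with 96, hold only 7 letters, so the word's length does not rank the members fully. In all 4 carriers the word lies on the sense strand in the coding part of the single exon, 2117 bases from the annotated 3′ end in Pcdhb13 (chromosome 18, 37444080 to 37444092, GRCm38), 2768 in Pcdhb17 (37486674 to 37486686), 3519 in Pcdhb16 and 6980 in Pcdhb14.

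**Figure D4:**
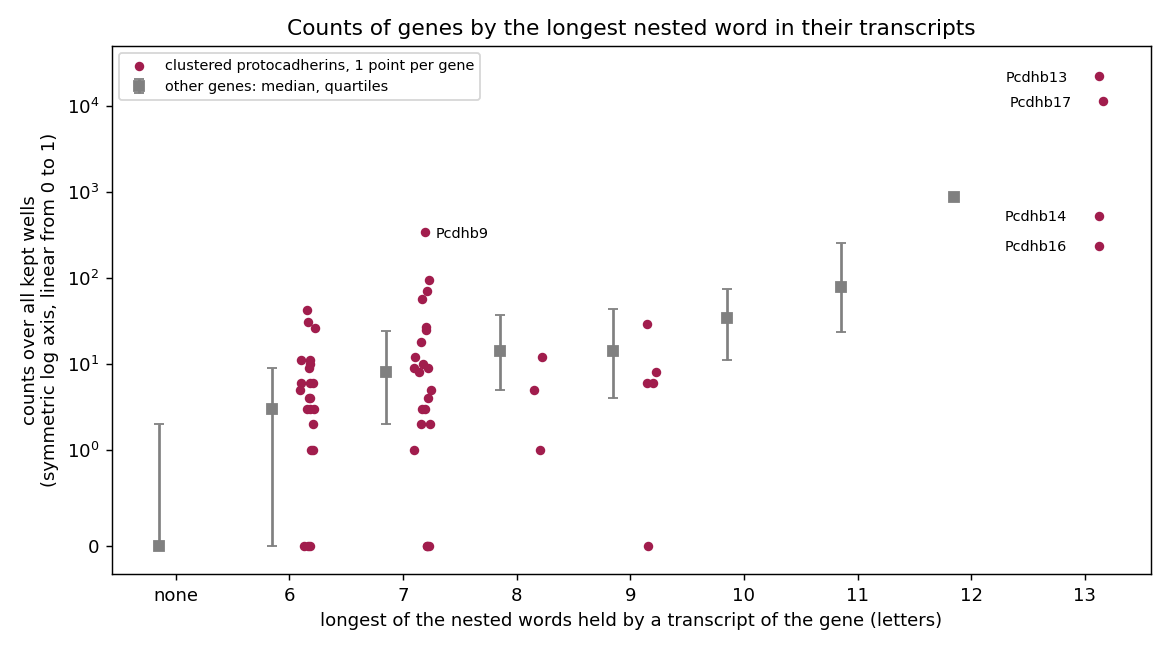
Counts over the 183 kept wells (symmetric log axis) by the longest of the nested words on either strand of a gene's transcripts, as medians with quartiles for other genes (grey squares) and 1 point per clustered protocadherin (red). The other genes rise from a median of 0 to 875.5, and the 4 members with 13 letters lie between 236 and 22227.

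The letters that follow the 6-letter word differed with the plate position. For each of the 43 positions, the word of CAGACA and 5 more letters that was most in excess among the non-member genes led by that position was taken. The 43 words were all different, and a median of 52% of the genes led by a position held its word, against 0.54% of genes led by other positions. The words were picked on these same genes, so the shares describe them and are no test, but no member was used. The members could then be read against the words of their own positions:
E11 word: CAGACAACACC
D11 word: CAGACAACGAG
B07 word: CAGACAATGGC
The E11 word is in 15 of the 24 genes led by E11, in 0.299% of all genes, and in 1 member, Pcdhb9, which is led by E11. The D11 word is in 7 of the 24 genes led by D11 (29.2%) and the B07 word in 5 of the 15 led by B07 (33.3%). No member holds the D11 or the B07 word. Of the words of all 43 positions, members held 2 more, that of A02 in Pcdhb21 and Pcdhb22 and that of A07 in Pcdhgc5, and neither position led Pcdhb22 on any plate. Pcdhb13 comes within 1 of the 5 last letters of the D11 word, as do 45.8% of the genes led by D11 and 3.64% of all genes. Pcdhb14, Pcdhb15, Pcdhb16 and Pcdhb17 come within 1 letter of the B07 word, as do 46.7% of the genes led by B07 and 4.57% of all genes. These 4 genes are neighbours in the beta cluster and are not separate matches. How near members come, short of a full match, to the words of positions that do not lead them was not computed. The primer and well index sequences of the libraries are not given in the sources used here, so the words were not compared with them, and their part in the counts of Pcdhb13, Pcdhb17 and the other members was not tested.

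The genes whose share of a well's counts was most like that of Pcdhb13 over the 183 kept wells, centred within each library, were Add2 (r = 0.83), Gm10389 (0.79), Taar4 (0.79), Togaram1 (0.78) and Blcap (0.78), out of 373 genes counted in at least 50% of wells. All 5 were highest at D11 on every plate, and without the D11 wells their r was between -0.14 and 0.21. For Pcdhb17 they were Pcdhb14 (0.85), Gm44832 (0.81), March7 (0.80), Kcnd2 (0.79) and Pcdhb16 (0.75). All 5 were highest at B07, and without it r was -0.06 to 0.35, with Pcdhb14 the highest.

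Between genotypes the family's counts differed by less than 2-fold. Counts of all 56 genes in Cnga3-/- were 0.79-fold those in Wildtype (interval 0.77 to 0.81), those in Pde6ccpfl1 were 1.10-fold those in Wildtype (1.08 to 1.13) and 1.40-fold those in Cnga3-/- (1.36 to 1.43). Over all genes compared the median fold was 0.80, 0.89 and 1.05. The sum over the family is mostly the leading pair, and the other 54 members gave 0.93-fold (0.83 to 1.05), 1.04-fold (0.92 to 1.17) and 1.11-fold (0.99 to 1.25). Some directions turned with the wells used. Here odd-numbered and even-numbered wells are alternate kept wells of a library, in the order of the deposited columns. They are not odd and even plate columns. As the kept wells differ between libraries, a plate position can fall in different sets in different libraries. The log2 ratio of the whole family in Cnga3-/- over Wildtype, -0.34 with all kept wells, was 0.03 with odd-numbered and -0.69 with even-numbered wells. In Pde6ccpfl1 over Wildtype it was 0.14, and -0.01 without the 5 deepest wells of each library, where Pcdhb13 went from 0.09 to -0.20. Pcdhb13 was 0.73-fold in Cnga3-/- over Wildtype (0.71 to 0.76), 1.06-fold in Pde6ccpfl1 over Wildtype (1.03 to 1.10) and 1.45-fold in Pde6ccpfl1 over Cnga3-/- (1.41 to 1.50). Pcdhb17 was 0.90-fold (0.86 to 0.94), 1.21-fold (1.15 to 1.26) and 1.35-fold (1.29 to 1.41).

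No member that could be compared was 2-fold apart. A gene entered a comparison when the 2 libraries together held 50 or more of its counts and 20% or more of the wells of either library had one. In Cnga3-/- over Wildtype 0 of 6 members compared were 2-fold apart, where, of 1723 genes, 11.2% were 2-fold or more higher and 11.7% 2-fold or more lower. In Pde6ccpfl1 over Wildtype it was 0 of 7, beside 10.2% of 1600 genes higher and 15.2% lower. In Pde6ccpfl1 over Cnga3-/- it was 0 of 6, beside 6.44% of 1693 genes higher and 9.33% lower.

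Below that filter, the named members with an interval that left 1 out were as follows. In Cnga3-/- over Wildtype, Pcdhb8 was 3.36-fold (1.52 to 8.41), Pcdhb19 3.46-fold (1.13 to 14.1) and Pcdhgb6 0.36-fold (0.12 to 0.91). Pcdhgb6 was 0.17-fold in Pde6ccpfl1 over Wildtype (0.032 to 0.61), and Pcdhga5 0.30-fold in Pde6ccpfl1 over Cnga3-/- (0.099 to 0.75). Their counts were 8, 33 and 16 for Pcdhb8, 4, 17 and 6 for Pcdhb19, 16, 7 and 3 for Pcdhgb6, and 14, 23 and 6 for Pcdhga5. The share of all genes below the filter that lay as far apart was not computed. The gamma sum was 1.13-fold in Cnga3-/- over Wildtype (0.81 to 1.59), 0.57-fold in Pde6ccpfl1 over Wildtype (0.37 to 0.86) and 0.50-fold in Pde6ccpfl1 over Cnga3-/- (0.33 to 0.74), from 62, 86 and 38 counts. The alpha sum was 1.29-fold (0.70 to 2.42), 1.07-fold (0.55 to 2.09) and 0.83-fold (0.46 to 1.49). The beta sum without the leading pair was 0.89-fold (0.78 to 1.01), 1.10-fold (0.97 to 1.25) and 1.24-fold (1.09 to 1.40). These intervals do not hold the spread between wells. With odd-numbered wells alone the log2 ratio of Pcdhb17 in Pde6ccpfl1 over Cnga3-/- was -0.15 and with even-numbered wells 1.07, against 0.43 with all.

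**Figure D5:**
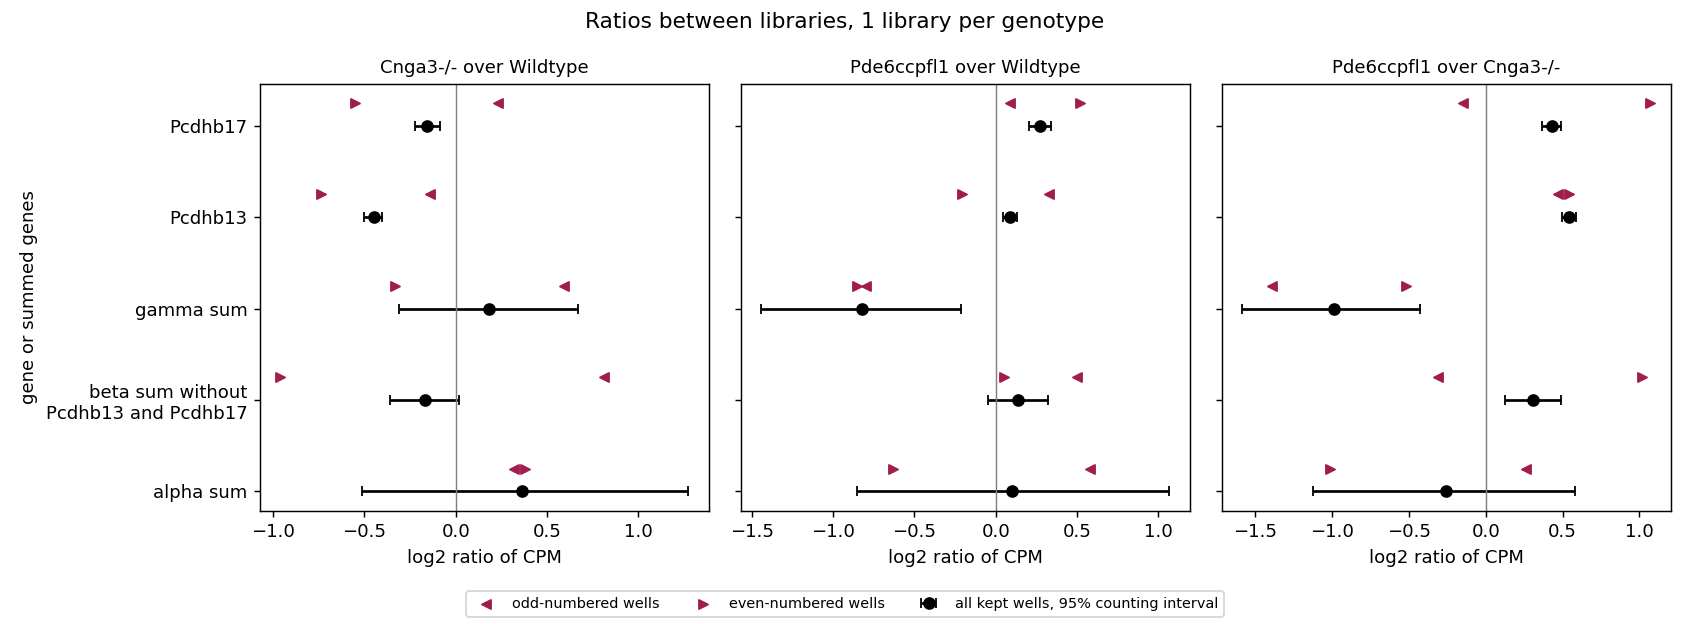
Log2 ratio of CPM between libraries for Pcdhb13, Pcdhb17 and the summed genes of each cluster, with 1 library per genotype, black points with 95% counting intervals for all kept wells and triangles for odd-numbered and even-numbered wells. For Pcdhb17 and for the other beta genes the triangles lie on both sides of 0 in Cnga3-/- over Wildtype and in Pde6ccpfl1 over Cnga3-/-. Odd and even refer to the order of kept wells within a library, not to plate columns.

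Genes related to the clusters had far fewer counts than the leading pair. The 12 non-clustered protocadherins, adhesion genes outside the clusters, had 184, 275 and 243 counts in Wildtype, Cnga3-/- and Pde6ccpfl1. Of 4 of them compared, Pcdh9 was higher in Pde6ccpfl1 than in Wildtype (61 against 3 counts, log2 ratio 4.23, 2.62 to 6.55), and of 6 compared Pcdh15, which links the tips of hair cell stereocilia, was lower in Pde6ccpfl1 than in Cnga3-/- (16 against 44 counts, -1.27, -2.20 to -0.42). The 14 genes of isoform choice and cluster chromatin, among them Ctcf, Rad21 and Smchd1, had 415, 420 and 411 counts, and 0 of 5, 0 of 6 and 0 of 5 compared were 2-fold apart, where 11.2% of all genes were higher and 11.7% lower, then 10.2% and 15.2%, and then 6.44% and 9.33%. The 18 genes for partners and processing of the shared intracellular ends had 350, 360 and 226 counts. The kinase Ptk2b was at least 2-fold lower in Pde6ccpfl1, with 73 counts against 216 in Wildtype and 170 in Cnga3-/-. It was 1 of 2 genes of this list compared in Pde6ccpfl1 over Wildtype and 1 of 3 in Pde6ccpfl1 over Cnga3-/-. Among all genes 15.2% and 9.33% were lower there. Of the 30 classical and other cadherins, Dchs2 had 18, 328 and 260 counts and Cdh12 had 9, 136 and 105, and they were the 2 of 11 compared in Cnga3-/- over Wildtype and the 2 of 12 compared in Pde6ccpfl1 over Wildtype that were at least 2-fold higher. Among all genes those shares were 11.2% and 10.2%, and with so few genes compared the list counts are not a result about the lists.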

How the data were processed

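The deposited values are raw counts of reads per gene in each well, made with featureCounts (no version) per the submitters' processing notes. Those notes name the build GRCh38, which is human, while the symbols are mouse symbols (30464 of 31053 are in GENCODE M21), so no coordinate was taken from it. How molecular identifiers and reads on overlapping genes were treated, which aligner was run and whether wells were filtered is not given in the sources used here, so counts may not be independent molecules. Per library, counts were added over kept wells and divided by the sum of all genes (Python 3.11.15, pandas 2.3.3, scipy 1.17.1). CPM has an exact Poisson interval, a share an exact Clopper-Pearson interval and a ratio of CPM an exact conditional binomial interval. Doublets were not called in these sorted wells. The genes named are the members with at least 20 counts, the 5 genes most like Pcdhb13 and Pcdhb17, and related genes compared and at least 2-fold apart. Of the 10 most abundant genes, which that rule also names, Pcdhb13 and Pcdhb17 are described in the text, and the others are Cttnbp2nl, Trpm4, Slc34a2, Shroom2, 7420701I03Rik, Kif23, Il18 and Smtnl1. Members and lists were chosen with earlier results of these data known, and the plate position and word searches were added after the data were seen. Ratios and leading positions were tested on simulated data. The simulated counts were independent draws from a pooled profile, with position effects in planted genes only. They lack the spread between wells and positions of the real data, so they do not test the intervals against it. Alternatives changed the well filter, the scaling (with TMM factors from edgeR 4.0.16), the thinning, the wells used and the minimum count.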

Additional observations from a re-analysis of the deposited data

Results flagged for a closer look

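The wells that the filter left out are in none of the ratios between genotypes printed here. They enter only the tally of values under the alternatives, through the setting without a well filter. Both leading isoforms were counted in each of these wells, 25 of 25. In the 9 Wildtype wells left out Pcdhb13 took 4.32% of the counts (interval 3.86 to 4.82), against 2.67% in kept wells, and Pcdhb17 took 1.72% (1.43 to 2.04), against 1.22%. In the 6 Cnga3-/- wells left out it was 2.08% for Pcdhb13 (1.70 to 2.53), against 1.95%, and 1.96% for Pcdhb17 (1.58 to 2.39), against 1.09%. In the 10 Pde6ccpfl1 wells left out it was 3.44% for Pcdhb13 (3.06 to 3.86), against 2.84%, and 2.07% for Pcdhb17 (1.78 to 2.40), against 1.47%. Single wells weigh on these shares, since the Wildtype well at H09 held 98 of the 310 Pcdhb13 counts and the Cnga3-/- well at B08 held 46 of the 93 Pcdhb17 counts. These wells held 530 to 1203 counts and 230 to 487 genes each. The other 54 members had 7, 1 and 12 counts in them.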

How the results depend on the processing

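Of 21 results (18 log2 ratios and 3 shares of the leading pair) under the alternatives, 164 values stayed within the counting interval of the value from all kept wells, and the others lay outside it. Of the ratios, 14 had another sign under an alternative, 7 of them where the interval had left 0 out. The other 7 were -0.63, -0.57 and -0.34 for the alpha sum in Pde6ccpfl1 over Wildtype (even-numbered wells, without the deepest wells, mean CPM), 0.26 and 0.15 for it in Pde6ccpfl1 over Cnga3-/- (odd-numbered wells, shared positions), and 2 given below. No paired analysis was possible because each genotype is 1 library and the groups share a single replicate number. Only positions kept on all plates and wells without D11, B07, E11 and H09 were alternatives chosen after seeing the data. The cause of each shift was not tested. The limits are depth (a median of 3796 to 4895 counts per well) and 1 library per genotype. All values below are log2 ratios unless given in %.

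With odd-numbered wells the sum of all members changed sign in Cnga3-/- over Wildtype (0.03), as did Pcdhb17 there (0.23), Pcdhb17 in Pde6ccpfl1 over Cnga3-/- (-0.15) and the beta sum without the leading pair in the same comparison (-0.31). With even-numbered wells, and without the 5 deepest wells of each library, Pcdhb13 changed sign in Pde6ccpfl1 over Wildtype (-0.21 and -0.20), and without the deepest wells so did the sum of all members (-0.01).

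In Cnga3-/- over Wildtype, the sum of all members was -0.69 with even-numbered wells, -0.26 with TMM, -0.20 with median-of-ratios factors, -0.23 without abundant genes in the total and -0.39 without the 4 positions. Pcdhb13 was -0.14 with odd-numbered and -0.74 with even-numbered wells, -0.37 with TMM, -0.31 with median-of-ratios factors, -0.34 without abundant genes, -0.40 with shared positions and -0.53 without the 4 positions. Pcdhb17 was -0.55 with even-numbered wells, -0.27 thinned, -0.24 as mean CPM, -0.08 with TMM, -0.02 with median-of-ratios factors and -0.04 without abundant genes. The other beta genes were 0.81 with odd-numbered and -0.96 with even-numbered wells, -0.55 thinned and -0.39 as mean CPM. The alpha sum was 1.44 thinned, and the gamma sum -0.33 with even-numbered wells.

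In Pde6ccpfl1 over Wildtype, the sum of all members was 0.26 with odd-numbered and 0.05 with even-numbered wells, 0.08 thinned, 0.24 under each of the 3 scalings, 0.19 with shared positions and 0.11 without the 4 positions. Pcdhb13 was 0.33 with odd-numbered wells, 0.01 thinned and without the 4 positions, 0.15 with shared positions, 0.19 with TMM and without abundant genes, and 0.18 with median-of-ratios factors. Pcdhb17 was 0.09 with odd-numbered and 0.52 with even-numbered wells and 0.37 under each scaling, and the other beta genes 0.50 with odd-numbered wells. In Pde6ccpfl1 over Cnga3-/-, the sum of all members was 0.24 with odd-numbered and 0.74 with even-numbered wells, 0.31 without the deepest wells and 0.44 with median-of-ratios factors. Pcdhb13 was 0.47 with odd-numbered wells, 0.43 thinned, 0.24 without the deepest wells and 0.49 with median-of-ratios factors. Pcdhb17 was 1.07 with even-numbered wells and 0.50 as mean CPM, the other beta genes 1.02 with even-numbered wells and 0.75 thinned, and the alpha sum -1.19 thinned and -1.30 without the deepest wells.

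The share of the leading pair was between 94.01% and 96.39% over all libraries and alternatives. It was 96.39% with odd-numbered wells, 94.4% with even-numbered wells and 96.34% without the 4 positions in Wildtype, 94.9% with even-numbered wells, 95.46% thinned and 95.45% without the 4 positions in Cnga3-/-, and 96.17%, 94.7%, 95.16% without the deepest wells and 96.34% without the 4 positions in Pde6ccpfl1. Median-of-ratios factors raised all Cnga3-/- over Wildtype ratios by 0.14, and TMM raised those of Pde6ccpfl1 over Wildtype by 0.10. The number of genes at least 2-fold apart rose to between 191 and 511 with a minimum of 10 counts and fell to between 21 and 39 with 200, from 109 to 244.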
